A study of Mus musculus with 36 samples.

Results

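PAX6 peaks deep inside coding genes were examined in mouse enteric precursor cells (EPCs). A peak was counted as deep when its centre lay inside the body of a protein-coding gene and more than 10 kb from every annotated transcript start, whatever the type of gene that start belonged to. The rule used positions in mm9 and the GENCODE M1 annotation, and no score or sequence. It selected 512 of the 2247 PAX6 peaks, namely 101 of 491 in pool 1, 233 of 1032 in pool 2 and 178 of 724 in pool 3. The same rule selected 252 of the 1007 IgG peaks. The EPCs came from the ganglionic gut of CD1 mice at postnatal day 7 and carried no genetic change. They were grown in culture with fibroblast and epidermal growth factors and glial cell-derived neurotrophic factor. Chromatin was immunoprecipitated with an antibody against PAX6 in 4 libraries of pool 1, 6 of pool 2 and 6 of pool 3, each pool with as many input libraries, and with mouse IgG, the negative control, in 4 libraries labelled pool 1. A pool is a set of libraries sequenced together, and the labels do not tie pools to separate mice. Peaks were deposited as 1 list per pool, so that the 3 PAX6 lists and the single IgG list are the units and the spread between libraries is unknown. The lists hold positions and scores but no read counts or expression, so that depth is unknown and the cell label could not be checked against marker genes. Pool 3 stood apart in its scores and in the repeat content of its peaks, which is described with those results.

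PAX6 is a transcription factor that contacts DNA through a paired domain and a homeodomain. It is known for its roles in the developing eye, forebrain and pancreas. EPCs are neural crest-derived cells of the gut wall that give rise to enteric neurons and glia, and their failure to colonise the distal bowel underlies Hirschsprung disease. A peak in the interior of a gene can lie over an enhancer of that gene or over an element that acts on a neighbour. It can also lie over a stretch that chromatin immunoprecipitation recovers without the antibody's target. IgG peaks are the control for such stretches but cannot give their level in the PAX6 lists. The IgG list is of unknown depth, and its libraries all carry the same pool label. For the other pools, antibody and pool differ together in every comparison with IgG.

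Sequences of mm9 are shown first because the repeats in them recur in the results. The stretches below are parts of the regions where deep peaks of different pools overlapped, chosen to show each kind of sequence met there. Capitals mark the longest perfect tandem tract of at least 20 bp, that is, a unit of 1 to 6 bases repeated without interruption. Smad9 carried an AAC tract and Dgki an AAG tract, Nxph1, Kcnq1 and Atxn1 carried alternating GT, and Lyst and Stau2 carried no perfect tract of that length but consisted of longer or interrupted repeats.
Smad9, pools 1 and 2, chr3:54572957-54573156, plus strand: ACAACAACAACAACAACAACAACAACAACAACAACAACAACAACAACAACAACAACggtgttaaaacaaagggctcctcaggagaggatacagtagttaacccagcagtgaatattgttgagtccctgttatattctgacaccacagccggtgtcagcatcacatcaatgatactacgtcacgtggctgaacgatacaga
Dgki, pools 2 and 3, chr6:37156837-37157036, plus strand: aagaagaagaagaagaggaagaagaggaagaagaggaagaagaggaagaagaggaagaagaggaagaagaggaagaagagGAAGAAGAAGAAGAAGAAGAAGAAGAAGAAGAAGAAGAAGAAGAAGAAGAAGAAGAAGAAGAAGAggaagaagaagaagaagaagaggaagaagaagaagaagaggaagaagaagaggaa
Nxph1, pools 1 and 2, chr6:9172274-9172424, plus strand: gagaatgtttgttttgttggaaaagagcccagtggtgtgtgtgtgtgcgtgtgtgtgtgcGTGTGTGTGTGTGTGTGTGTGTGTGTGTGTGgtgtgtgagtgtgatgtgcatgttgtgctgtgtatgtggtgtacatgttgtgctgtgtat
Kcnq1, pools 2 and 3, chr7:150371097-150371254, plus strand: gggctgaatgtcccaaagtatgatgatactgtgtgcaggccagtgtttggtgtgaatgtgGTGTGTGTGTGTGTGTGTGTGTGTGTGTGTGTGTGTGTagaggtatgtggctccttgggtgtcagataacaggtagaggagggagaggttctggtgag
Atxn1, pools 2 and 3, chr13:45936767-45936882, plus strand: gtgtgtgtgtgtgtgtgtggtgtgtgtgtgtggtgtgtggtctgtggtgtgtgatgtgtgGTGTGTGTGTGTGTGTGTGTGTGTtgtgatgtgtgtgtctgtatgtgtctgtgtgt
Lyst, pools 1 and 2, chr13:13845389-13845588, plus strand: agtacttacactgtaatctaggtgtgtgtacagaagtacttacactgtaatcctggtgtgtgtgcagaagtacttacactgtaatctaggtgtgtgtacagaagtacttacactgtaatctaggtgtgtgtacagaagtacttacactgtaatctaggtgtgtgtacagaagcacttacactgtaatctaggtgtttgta
Stau2, pools 2 and 3 and IgG, chr1:16332842-16333041, plus strand: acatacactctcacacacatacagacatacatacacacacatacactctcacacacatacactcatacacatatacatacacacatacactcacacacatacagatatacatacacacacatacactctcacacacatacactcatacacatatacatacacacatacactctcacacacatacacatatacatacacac

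The highest scoring deep peak of each pool is represented by its central 200 bases. In Fut9 the tract was an alternating AC stretch of 24 bp. In Utrn it was an AAC stretch of 32 bp within a longer run of CAA and CAC triplets, and in 2610019F03Rik no perfect tract of 20 bp was present although the whole stretch consisted of imperfect CA-rich repeats.
Fut9, highest deep peak of pool 1, chr4:25693916-25694115, plus strand: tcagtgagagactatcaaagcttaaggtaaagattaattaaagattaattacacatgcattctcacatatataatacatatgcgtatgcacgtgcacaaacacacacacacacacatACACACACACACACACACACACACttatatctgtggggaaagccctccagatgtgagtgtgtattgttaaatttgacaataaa
Utrn, highest deep peak of pool 2, chr10:12408803-12409002, plus strand: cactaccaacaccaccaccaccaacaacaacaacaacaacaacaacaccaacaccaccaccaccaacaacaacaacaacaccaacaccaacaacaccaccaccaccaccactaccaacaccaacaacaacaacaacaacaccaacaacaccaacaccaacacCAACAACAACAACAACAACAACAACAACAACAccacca
2610019F03Rik, highest deep peak of pool 3, chr8:13960357-13960556, plus strand: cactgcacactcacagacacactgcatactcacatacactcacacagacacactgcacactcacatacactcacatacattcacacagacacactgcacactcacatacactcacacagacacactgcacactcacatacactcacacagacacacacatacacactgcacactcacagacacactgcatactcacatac

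The first comparison asked whether PAX6 peaks lay deep inside coding genes more often than IgG peaks. They did not pass the test in any pool. On chromosomes 1 to 19 and X, the only ones analysed, 20.7% of the 489 peaks of pool 1, 22.9% of the 1018 peaks of pool 2 and 25% of the 712 peaks of pool 3 were deep, against 25.05% of the 1006 IgG peaks. The bases that satisfy the rule, called the gene interior from here on, make up 602.7 Mb or 23.6% of the assembled sequence. Pools 1 and 2 were therefore below both the IgG share and the share of the genome, and pool 3 was at the IgG share. The difference from IgG was -4.40 percentage points in pool 1 (95% interval -8.74 to 0.206, Fisher's exact test p = 0.0690, adjusted p = 0.621), -2.16 points in pool 2 (-5.88 to 1.56, adjusted p = 0.738) and -0.0497 points in pool 3 (-4.16 to 4.15, adjusted p = 1). Fisher's exact tests were two-sided and take peaks as units, so that their p-values and all intervals cover counting error only. Adjustment was by Benjamini-Hochberg over the 18 Fisher's exact tests made here, of which 0 passed 0.05 after adjustment and 0 before it. With 3 PAX6 lists against 1 IgG list, an exact test over the lists themselves could not give a p below 0.25.

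**Figure D1:**
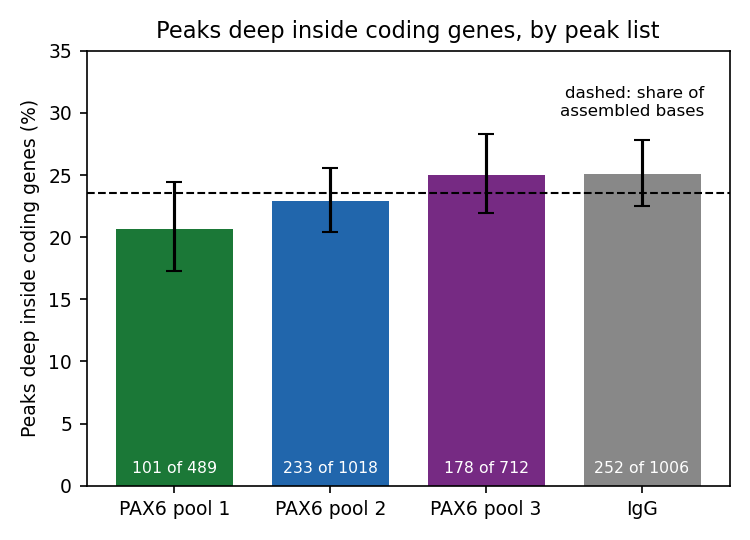
Share of peaks (%, y axis) that lay deep inside coding genes in the 3 PAX6 lists and the IgG list (x axis), with 95% Wilson intervals and the number of peaks in each bar. The bars run from 20.7% in pool 1 to 25% in pool 3 and 25.05% in IgG, and the dashed line marks the 23.6% of assembled bases that satisfy the same rule.

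Nearly all deep PAX6 peaks lay in introns. The centre was intronic in 509 of the 512 peaks (99.4%, Wilson interval 98.3 to 99.8), while introns make up 95.9% of the gene interior. IgG peaks gave 248 of 252 (98.4%, 96.0 to 99.4). The exceptions included a coding exon of Tmem50a in pool 1 (score 57.61) and a UTR or non-coding exon of Gm6483 in pool 3 (score 121.38). The Tmem50a peak held a CA repeat of 51 bp. In the Gm6483 peak 85.7% of the 32-base words were present more than once in mm9, within the peak or elsewhere. Introns that held peaks were long, with 53.2% of the placed intronic peaks in an intron of over 50 kb and 25.1% in the first intron of the longest transcript. For IgG these shares were 49.6% and 23.4%.

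Summed over the pools, similar numbers of PAX6 peaks lay in each part of the genes. The rule takes out bases within 10 kb of every start, and the gene interior in each part was not measured. Whether the peaks were even per base is therefore unknown. When the host gene was cut into equal parts, the start, middle and end part held 174, 162 and 176 of the PAX6 peaks, against 68, 84 and 100 of the IgG peaks. The end part held 41.6% of the deep peaks in pool 1, 33.5% in pool 2 and 31.5% in pool 3, with Wilson intervals that overlap (32.5 to 51.3 in pool 1 and 25.1 to 38.6 in pool 3). Distances to the nearest transcript start had medians of 33.0, 35.8 and 35.5 kb in pools 1, 2 and 3 and of 32.4 kb for IgG. Between 10 and 20 kb from a start lay 26.4% of the PAX6 peaks, where 28.1% of the gene interior lies, and beyond 100 kb lay 15.6%, where 16.4% of it lies. Within the first 1 kb beyond the 10 kb limit lay 4 members in pool 1, 8 in pool 2 and 9 in pool 3, the closest at 10088 bp. Within the last 1 kb before it lay 3, 8 and 8 peaks that were left out, the closest at 9867 bp.

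Simple repeats were the feature that most set deep peaks apart from the rest of the gene interior, and IgG peaks shared it. In the 300 bp around the peak centre, 51.9% of the PAX6 peaks held an uninterrupted alternating CA or TG stretch that reached 20 bp (Wilson interval 47.6 to 56.3), against 3.12% of the 2008992 windows of 300 bp in the gene interior. The pools gave 48.5%, 51.9% and 53.9%, and IgG gave 49.6%. Searched over the whole peak, the repeat was found in 52.5% of the deep peaks of pool 1, 59.7% of pool 2, 60.7% of pool 3 and 60.3% of IgG. The differences from IgG were -7.84 points in pool 1 (95% interval -19.1 to 3.45, Fisher's exact test adjusted p = 0.738), -0.661 points in pool 2 (-9.33 to 8.00) and 0.357 points in pool 3 (-9.02 to 9.58), the last pair each with an adjusted p of 1. Among peaks with scores of at least 100, the difference was -46.7 points in pool 2 (33.3% of 27 deep peaks against 80% of IgG, Fisher's exact test p = 0.0234, adjusted p = 0.141) and -23.75 points in pool 3. Both rest on the same few IgG peaks, fewer than 20, since the 20 highest deep IgG peaks reached down to a score of 90.56. The cut also treats scores of lists of unknown depth alike. Deep peaks also held it a little more often than the other peaks of their own list, by 4.02 points in pool 1, 3.86 in pool 2 and 4.87 in pool 3, and none of these passed (lowest adjusted p = 0.738 by Fisher's exact test). Where the repeat was present, it had a median length of 38 bp (pool 1), 40 bp (pool 2) and 35 bp (pool 3), and of 36 bp in IgG peaks. It was centred within 100 bp of the peak centre in 66.3% of the 300 such PAX6 peaks and in 58.6% of the 152 such IgG peaks. Narrow peaks meet this limit more easily, and the median width of deep peaks was 501, 452 and 355 bp in pools 1, 2 and 3 and 439 bp in IgG.

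When every unit of 1 to 6 bases was allowed, 68.0% of the deep PAX6 peaks held a perfect tandem tract of at least 20 bp in the central 300 bp, against 8.82% of the windows. The share was 61.4% in pool 1 (Wilson interval 51.6 to 70.3), 73.0% in pool 2 (66.9 to 78.3), 65.2% in pool 3 (57.9 to 71.8) and 58.7% in IgG (52.6 to 64.6), so that the interval of pool 2 lay above that of IgG and those of the other pools overlapped it. Over the whole peak a tract was present in 381 of 512 peaks, and in 268 of these the longest tract was AC, which stands for CA, TG and GT as well. AG followed with 29, AAC with 23 and AAG with 10. The longest tract of 3 further peaks, all of pool 3, was AACCCT, the unit of mammalian telomeres.

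AAC tracts belonged almost entirely to pool 2. They were the longest tract in 22 of its 233 deep peaks (9.44%, Wilson interval 6.32 to 13.9), in 1 of 101 in pool 1, which is the Smad9 peak shown above, and in 0 of 178 in pool 3 and 0 of 252 in IgG, counts that allow shares of up to 1.69% and 1.19% by the limit of 3 counts, with Wilson upper bounds of 2.11% and 1.5%. The other peaks of pool 2 held them as often, in 77 of 785 (9.81%), so that they were not particular to gene interiors. Deep AAC peaks of pool 2 scored high within their list, with a median of 84.05 against 68.98 for AC peaks, and made up 9 of its 20 highest scoring deep peaks. These included peaks in Rasgef1a (score 202.68), Smad9 (177.55), Mfsd7c (166.08), Slc17a5 (149.47), Ptprd (132.45), Fhit (131.79) and Fndc3b (131.79). This unit was singled out after the counts were seen, and no test was made of it.

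**Figure D2:**
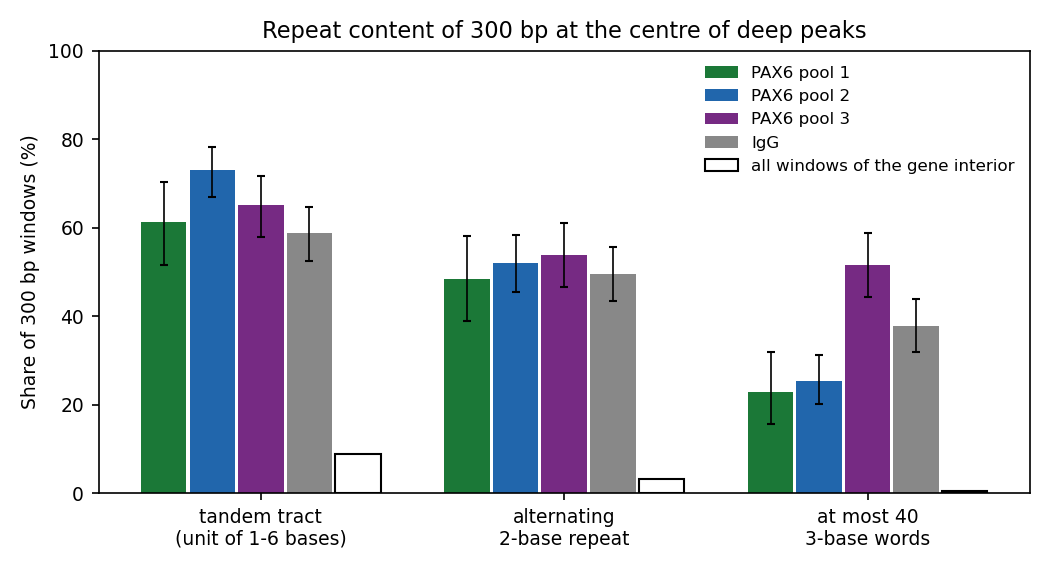
Share (%, y axis) of deep peaks whose central 300 bp held a perfect tandem tract of at least 20 bp, an alternating CA or TG stretch of that length, or at most 40 different 3-base words, by list, with 95% Wilson intervals, and the same share of all 300 bp windows of the gene interior (open bars). All 4 lists stand far above the windows in each feature, and pool 3 stands highest for few 3-base words at 51.7%.

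A measure that does not depend on perfect repeats gave another order of the lists. Of the 64 possible 3-base words, a window of 300 bp in the gene interior held a median of 58. Deep peaks held a median of 52 in pool 1, 53 in pool 2, 38 in pool 3 and 47.5 in IgG. At most 40 different words were present in 22.8% of the deep peaks in pool 1 (Wilson interval 15.7 to 31.9), in 25.3% in pool 2 (20.2 to 31.3), in 51.7% in pool 3 (44.4 to 58.9) and in 37.7% in IgG (31.9 to 43.8), and in 0.455% of the windows. Pools 1 and 2 thus lay below IgG and pool 3 above it. The Dgki stretch shown above, made of GAA and GAG triplets, is of this kind. Pool 3 also had more sequence present more than once in mm9, where copies within the same peak count as well as copies elsewhere. Over 50% of the 32-base words of the peak were of this kind in 33.7% of its deep peaks (27.2 to 40.9), against 13.9% in pool 1, 9.44% in pool 2 and 12.7% in IgG (9.14 to 17.4). Its other peaks were alike, at 34.5%. Reads from such sequence can be placed at more than 1 site, in the same peak or elsewhere. How the authors treated them is not given in the sources used here. What part it had in the results was not tested.

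Motifs linked to the DNA-binding domains of PAX6 and related proteins were searched on both strands of the central 300 bp. The core letters TTCACGC of the paired-domain consensus were found in 1 of the 512 deep PAX6 peaks (0.195%, Wilson interval 0.0345 to 1.10), in 1 of the 252 IgG peaks and in 0.517% of the windows. The longer form TTCACGCNTGA, which contains that core, was found in 0 of 512, which allows a share of up to 0.586% by the limit of 3 counts (Wilson upper bound 0.745%), and in 0.00856% of the windows. The palindrome TAATNNNATTA, to which paired-type homeodomains bind as dimers, was found in 2 of 512 (0.391%, 0.107 to 1.41), both in pool 2, in 0 of 252 IgG peaks and in 1.05% of the windows. These are exact letters in a fixed window and say nothing of weaker or longer forms of the sites.

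Scores were tested within each list only, because they are p-values on a logarithmic scale (-10 times log10) and depend on depth. Where scores of different pools are set side by side or ranked below, they are as deposited, and pool 3 had the highest median. Deep peaks were scored like the other peaks of their list. The median score was 63.53 for deep and 61.585 for other peaks in pool 1, 68.98 for both in pool 2, and 106.35 and 105.42 in pool 3. The share of deep peaks above the median of the list exceeded that of the other peaks by 5.74 points in pool 1 (95% interval -5.15 to 16.3, Fisher's exact test adjusted p = 0.738), by 0.988 points in pool 2 (-6.18 to 8.27) and by 0.749 points in pool 3 (-7.67 to 9.14), the last pair with an adjusted p of 1. Scores often repeated exactly. In pool 2, 25 of the 233 deep peaks had a score of 68.98 and 102 shared their score with another deep peak, and in pool 1 22 of 101 did so.

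In pool 1 the highest scoring deep peaks lay in Fut9, a fucosyltransferase gene (score 108.8, rank 2 of 491), Ddo, which encodes D-aspartate oxidase (101.91), Plcl1 (99.41), Spock1, a proteoglycan gene (95), and Boll (94.62). The Spock1 peak lay inside the highest scoring peak of the whole IgG list (score 209.19), and the Ddo peak also overlapped an IgG peak. In pool 2 they lay in Utrn, the gene of the dystrophin relative utrophin (352.61, rank 2 of 1032), Rasgef1a (202.68), Mcc (181.78), Smad9 (177.55) and Slc36a2, an amino acid transporter gene (170.85). All 5 lacked a CA or TG repeat and all 5 held a tandem tract of another unit, of 50 to 113 bp. In pool 3 they lay in 2610019F03Rik (311.74, rank 7 of 724), Rgs6, a regulator of G-protein signalling (309.04), the ephrin receptor gene Epha3 (247.37), Slc35f3 (247.37) and Rbms3, an RNA-binding protein gene (245.61). The highest deep IgG peaks lay in Spock1, Mgat4a (146.66), Khdrbs2 (137.29), Ctnna3 (134.58) and Mdga2 (125.74). Of the 20 highest deep peaks, 9 in pool 1, 4 in pool 2, 10 in pool 3 and 14 in IgG held a CA or TG repeat.

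Deep PAX6 peaks fell in 428 of the 10125 coding genes with gene interior (4.23%), of which 360 held a single peak. IgG peaks fell in 235 (2.32%), and 67 genes held both, which is 15.7% of the PAX6 genes and 28.5% of the IgG genes. The 3 PAX6 lists together held 0.849 deep peaks per Mb of gene interior (exact Poisson interval 0.777 to 0.926) and the IgG list 0.418 (0.368 to 0.473), a comparison of 3 lists with 1. Per list the density was 0.168 per Mb in pool 1, 0.387 in pool 2 and 0.295 in pool 3.

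Long genes were hit most often, while the density per Mb differed far less between the length classes. A deep PAX6 peak was present in 0.765% of the 5356 genes shorter than 50 kb, in 7.34% of the 1444 genes of 100 to 200 kb, in 39.2% of the 148 genes of 500 to 1000 kb and in 63.5% of the 52 genes of at least 1000 kb. Per Mb of interior, the peaks numbered 0.682 (exact Poisson interval 0.492 to 0.922) in the shortest class and 0.933 (0.712 to 1.20) in the longest. For IgG the same classes gave 0.325 (0.198 to 0.502) and 0.389 (0.252 to 0.574). The PAX6 density was 0.682 and 0.655 in the classes under 100 kb and 0.885 to 0.933 in the longer classes. IgG gave 0.325 and 0.433, and 0.389 to 0.441. The intervals of the 6 length classes overlapped within each antibody, which does not show an even density. No test was made of it.

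**Figure D3:**
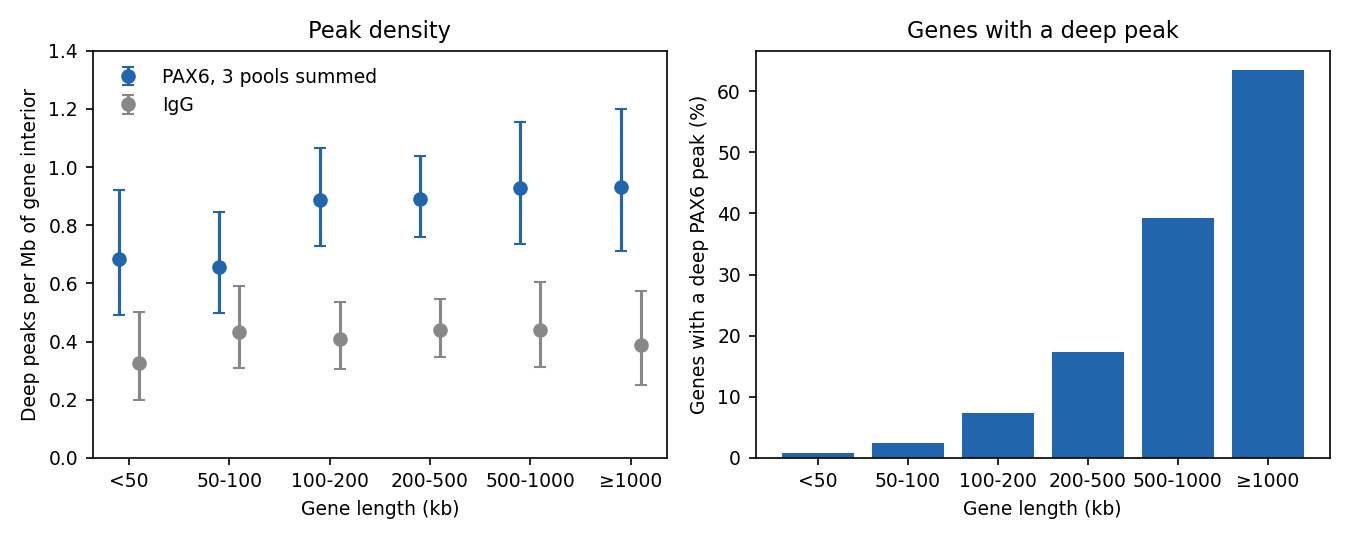
Left, deep peaks per Mb of gene interior (y axis) by length of the host gene (kb, x axis) for the 3 PAX6 lists summed and for IgG, with exact 95% Poisson intervals. Right, share of coding genes with gene interior that held a deep PAX6 peak (%). The density stays between 0.655 and 0.933 per Mb for PAX6, while the share of genes rises from 0.765% to 63.5%.

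Deep peaks from at least 2 pools were present in 42 genes (0.415% of the 10125). These genes were long, with a median of 504 kb and a median interior of 460 kb, against 171 kb for all genes with a deep PAX6 peak and 20.9 kb for all coding genes with interior. They held 98 of the 512 peaks and 4.25% of the gene interior, and 16 of the 42 also held a deep IgG peak. Each was picked for holding at least 2 peaks, so that their share of the peaks is high by selection. Of the host genes of pools 1, 2 and 3, 19.4%, 16.8% and 19.9% also held a deep peak of another pool. A deep IgG peak was held by 17.2%, 17.8% and 18.1% of them, although IgG is 1 list and the other pools are 2. The number of such genes was 27 without pool 1, 9 without pool 2 and 12 without pool 3, and it was 25 without peaks in which over 50% of the 32-base words recurred and 14 at scores of at least 70. In 32 of them the peaks of different pools did not overlap, and in 25 of these 32 the closest pair lay over 50 kb apart, with a median of 125 kb and a range from 7.535 kb in Fgfr2 to 1356 kb in Magi2.

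In 10 genes deep peaks of 2 pools overlapped, and in no gene did those of all 3. Of these regions, 6 were shared by pools 2 and 3, 3 by pools 1 and 2, and 1 by pools 1 and 3. The Smad9 region, in the first intron of a BMP-activated SMAD gene and 13.6 kb from its start, scored 54.2 in pool 1 and 177.55 in pool 2, which are rank 395 of 491 and rank 29 of 1032. The Mcc region, in the first intron of a WNT pathway regulator, scored 181.78 in pool 2 and 120.18 in pool 3, but its peaks shared only 10 bp. Dgki, which encodes a diacylglycerol kinase, scored 157.22 in pool 2 and 106.97 in pool 3 over 267 shared bases.

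The remaining overlaps scored lower in at least one pool. Atxn1, the gene of the chromatin-associated protein ataxin-1, gave 108.42 in pool 2 and 136.16 in pool 3. Nxph1, a secreted ligand of neurexins, gave 57.91 in pool 1 and 95.92 in pool 2 over 562 shared bases, the longest overlap of the 10. Kcnq1, a voltage-gated potassium channel, gave 68.98 in pool 2 and 78.85 in pool 3. Col4a2, a collagen IV chain of basement membranes, gave 77.71 in pool 2 and 77.53 in pool 3. Lyst, a regulator of lysosomal trafficking, gave 70.97 in pool 1 and 60.01 in pool 2, and a further peak of pool 1 lay 1.24 kb away in the same intron with a score of 58.38. The overlap lay 163 kb from the Lyst start but 30.8 kb from the nearest start of any gene. The study listed it under Gng4, so that its gene is ambiguous. Of the 32-base words of these 3 Lyst peaks, 69.1% to 93.9% were present more than once in mm9. Copies within the same peak count here, and the Lyst stretch shown above is itself a repeat. The regions of Stau2, an RNA-binding protein gene (111.2 in pool 2 and 66.29 in pool 3), and of Bcar3, an adaptor protein gene (52.37 in pool 1 and 66.07 in pool 3), also touched an IgG peak, which leaves 8 regions without one.

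Peaks that overlapped another pool were slightly more frequent among deep peaks than among the other peaks of the list, at 3.96% against 1.80% in pool 1, 3.86% against 1.66% in pool 2 and 3.93% against 3.18% in pool 3. Each overlap counts once in each of its 2 pools, so that the comparisons of the pools share regions and are not independent. None passed the test. The largest difference, 2.21 points in pool 2 (95% interval 0.0524 to 5.59), had p = 0.0673 and an adjusted p of 0.621 by Fisher's exact test. At scores of at least 100 it was 11.1 points, from 3 of 27 deep peaks and 0% of the others (Fisher's exact test p = 0.0125, adjusted p = 0.141). Overlap with IgG peaks was 9.90% in pool 1, the pool under which the IgG libraries were labelled, 2.15% in pool 2 and 3.93% in pool 3, or 22 of 512 peaks in all. It exceeded that of the other peaks of each list by 2.68, 0.617 and 0.187 points, with adjusted p-values of 0.807, 0.917 and 1 by Fisher's exact test.

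**Figure D4:**
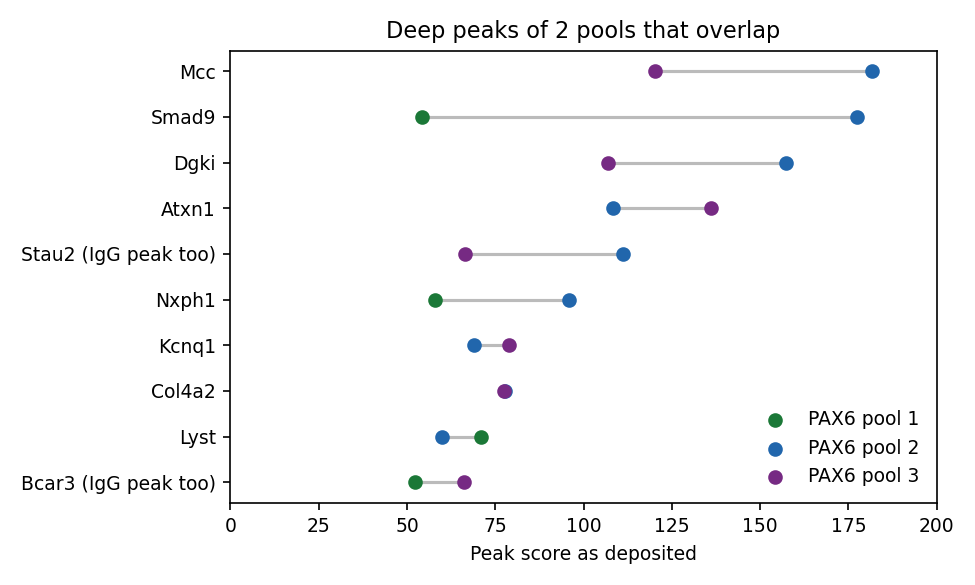
Deposited scores (x axis) of the 2 overlapping peaks in each of the 10 genes (y axis), coloured by pool, with the regions that also touch an IgG peak named as such. Scores of different pools rest on different depths. In Col4a2 both points coincide at 77.71 and 77.53, and the widest pair is Smad9 at 54.2 and 177.55.

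Genes with the most deep peaks were few. Only 5 genes held 4 peaks and 8 held 3. Dnahc8, which encodes a dynein heavy chain of cilia, held 4 peaks of pool 2 with scores of 59.92, 60.27, 64.39 and 99.69, the middle pair 0.572 kb apart, and 1 IgG peak. Pcdh15, a protocadherin of sensory hair cells, held 4 peaks of pool 2 with scores from 51.14 to 132.45, and 1 IgG peak. Hs6st3, a heparan sulfate sulfotransferase gene, was one of 3 genes hit in all pools. It scored 80.89 in pool 1, 66.01 and 60.63 in pool 2 and 107 in pool 3, all in its first intron and at least 26.0 kb apart, and it also held an IgG peak. All of these were intronic. Adarb2, a brain relative of the RNA-editing enzymes, gave 57.74 in pool 1, 68.98 in pool 2 and 58.17 in pool 3, and the peaks of pools 1 and 2 lay 8.46 kb apart in the first intron. Auts2, a gene of neuronal development, gave 53.58, 71.68 and 108.91, with the closest pair 341 kb apart. In its pool 1 peak 100% of the 32-base words were present more than once in mm9, within the peak or elsewhere. Neither Adarb2 nor Auts2 held a deep IgG peak.

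Fgfr2 and Gm20388, with 4 peaks each, have bodies annotated at 3009 kb and 4435 kb, in which 31 and 73 other coding genes start. They held 2.10 and 1.64 deep peaks per Mb of interior. The host gene is ambiguous there, since the peaks may lie closer to those other genes. In 362 of the 428 host genes no other coding gene started inside the body.

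Lists of genes related to PAX6, the enteric nervous system (ENS) or long neuronal genes were counted, and 6 of the 725 entries of the 12 lists made were not found in the annotation. Over all coding genes with interior 4.23% were hit, a share that rose with gene length as given above, so the density per Mb is given beside the number of genes hit. The list of ENS development and Hirschsprung disease had 31 genes with interior, and 6 of them held 7 deep PAX6 peaks, or 1.05 per Mb (exact Poisson interval 0.424 to 2.17) against 0.849 for all coding genes, and 1 held an IgG peak. Ednrb, the endothelin receptor gene of Hirschsprung disease, held 1 peak of pool 2 in its second intron, 13.5 kb from the nearest start (score 99.69), with a CA repeat of 46 bp. Gfra1, which encodes the GDNF co-receptor of RET, held 1 peak of pool 3 (65.72). Sema3c, a secreted semaphorin, and Gli2, a hedgehog effector, held 1 peak of pool 2 each (81.78 and 63.17), and Ntrk3, a neurotrophin receptor, held 1 of pool 1 (61.35). Dscam, an adhesion molecule, was the only gene of the list hit in 2 pools, with 99.69 in pool 2 and 88.73 in pool 3 at sites 299 kb apart. The list of PAX6 targets and partners in eye and brain had 23 genes with interior, of which 3 held a peak, or 1.06 peaks per Mb (0.218 to 3.09). These were Eya2 in pool 1 (67.66), Zfhx4 in pool 2 (65.03) and Ntrk2 in pool 3 (95.27). None held an IgG peak in 2.84 Mb of interior, where the interval for IgG reaches 1.30 per Mb.

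Neuronal adhesion molecules and synapse organisers had the most genes hit, 28 of 80, and a density at the level of all coding genes, 0.847 per Mb (0.602 to 1.16). Among them 7 were hit in 2 pools, including Nxph1, Cntn4, Cntnap4, Dscam, Csmd1 and Magi2, and only in Nxph1 did the peaks overlap. Sdk1, a sidekick adhesion molecule, had the highest score of the list in pool 3 (240.86). Axon guidance genes were hit in 9 of 53, or 1.04 peaks per Mb (0.497 to 1.91), with the highest score in Epha3 in pool 3. Cadherins and their partners were hit in 5 of 46, or 0.795 per Mb (0.381 to 1.46), led by Cdh13 in pool 3 (208.25). Glutamate and GABA receptors were hit in 9 of 39, with 1.03 per Mb for PAX6 and 0.749 for IgG.

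Channel genes held 1.29 peaks per Mb (0.749 to 2.06) in 13 of 71 genes, led by Cacna1d, an L-type calcium channel, in pool 3 (224.76) and Kcnk2, a background potassium channel, in pool 2 (111.26), while Kcnq1 was the channel hit in 2 pools. Enzymes of cyclic nucleotide and lipid second messengers held 1.25 per Mb (0.665 to 2.14) in 9 of 56 genes, and Pde3a, Pde4d and Dgki were hit in 2 pools each. Collagens and basement membrane genes held 1.31 per Mb (0.564 to 2.57) in 6 of 52 genes, and the dystrophin complex 0.567 per Mb (0.154 to 1.45), through Utrn and Dmd alone. The SMAD, TGF-beta and WNT list had the highest density, 1.73 per Mb (0.697 to 3.57), from 7 peaks in Smad9, Mcc, Ror2, Wnt7a and Gsk3b. The overlapping peaks of 2 pools in Smad9, and those in Mcc, were counted once per pool, and the interval takes them as separate. The interval of each list described here included 0.849, the density of all coding genes, and no test was made of these lists, whose genes were chosen with earlier results known.

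**Figure D5:**
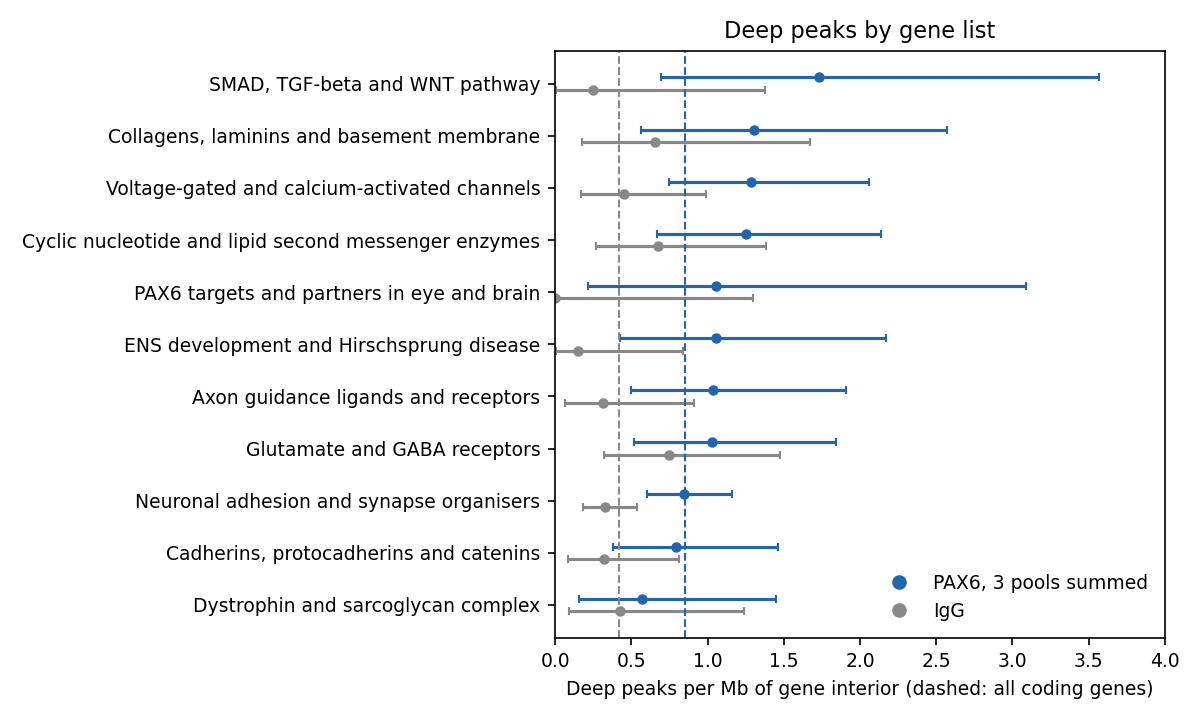
Deep peaks per Mb of gene interior (x axis) in the gene lists described here (y axis) for the 3 PAX6 lists summed and for IgG, with exact 95% Poisson intervals. Dashed lines mark all coding genes, at 0.849 for PAX6 and 0.418 for IgG. The interval of each list includes the PAX6 line.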

How the data were processed

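ChIP-seq was performed on cultured EPCs with an antibody against PAX6 or with IgG, giving 36 libraries with their inputs. Per the labels, the authors aligned reads to mm9 with Bowtie. According to the study's methods peaks were called with MACS. Versions of both tools are not given in the sources used here. Each deposited BED list holds each peak's position and a score, which on the scale named by the study is -10 times log10 of the p-value of the authors' caller. The study describes removing peaks that overlapped IgG, and the deposited lists still held 22 such deep peaks. The 4 lists (3 pools and IgG) carry no read counts, so depth and its precision are unknown. Peaks on chromosomes 1 to 19 and X were placed on 37252 GENCODE M1 genes, 22350 of them protein-coding. Repeats (at least 20 bp), motifs, 3-base words and 32-base words (every 10 bases, counted over the genome with copies in the same peak included) were read from mm9. Shares were compared by Fisher's exact test with Benjamini-Hochberg adjustment over 18 tests, with Newcombe intervals for differences, in Python 3.11.15, numpy 2.4.6 and scipy 1.17.1, and the functions were tested on simulated data. Genes were named where deep peaks of 2 pools overlapped, where all 3 pools had a peak, for the 10 genes with most peaks, for the 5 highest scoring deep peaks of each list, and, in the gene lists, for peaks from at least 2 pools or the highest score. Genes with peaks in exons or AAC tracts, and the further ENS, PAX6-target and SMAD list members, were named after their values were seen. Members and lists were chosen with earlier results of these data known. Tandem units and both word measures were chosen after the data were seen. Results for some genes and 1 gene list are not reported here.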

Additional observations from a re-analysis of the deposited data

Results flagged for a closer look

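Some peaks lay on sequences outside chromosomes 1 to 19 and X, which the comparisons did not use, and their share was higher in each PAX6 list than in the IgG list. They made up 0.407% of the peaks of pool 1 (2 of 491), 1.36% of pool 2 (14 of 1032) and 1.66% of pool 3 (12 of 724), against 0.0993% of IgG (1 of 1007). The difference was not tested.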

How the results depend on the processing

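In all, 199 values were recomputed under 18 settings, and 158 of them were classed as unchanged. Differences in this class did not change sign or side of the threshold, though their size could change greatly. Counts of genes in this class stayed near the original 42, from 37 to 47. Of the 186 with a Fisher's exact test, 0 passed 0.05 after adjustment, and the smallest adjusted p was 0.141. The 42 genes with deep peaks of at least 2 pools fell to 14 at a score of at least 70, to 6 at a score of at least 100 and to 25 without peaks of repeated words. Leaving out pools gave 9 to 27 genes, with 27 without pool 1, 9 without pool 2 and 12 without pool 3. All genes left under these settings were among the 42, as they had to be, since these settings only take peaks away.

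Differences are in percentage points. Some kept their sign and moved far or had an unadjusted p under 0.05 by Fisher's exact test, and the adjusted p was at least 0.141 in each. At scores of at least 100 the CA or TG repeat against IgG gave -30 in pool 1 (1 of 2 deep peaks) and -46.7 in pool 2 (exact p = 0.0234), and overlap with another pool gave 11.1 in pool 2 (exact p = 0.0125) and 3.125 in pool 3 (exact p = 0.0168). Fewer than 20 deep IgG peaks reached that score. Both overlap values rest on the same regions, in Mcc, Dgki and Atxn1, each counted once per pool. At 20 kb the repeat gave -14.8 in pool 1 (exact p = 0.0372) and overlap with another pool 3.15 in pool 2 (exact p = 0.0180). At 70, overlap with IgG gave 8.34 in pool 1. In the central 300 bp and with repeats of at least 30 bp, the repeat gave -1.09 and -2.27 in pool 1. The deep share of pool 1 gave -5.07 at 5 kb (exact p = 0.0436), -5.37 with starts of coding genes only (exact p = 0.0256), -4.78 on autosomes (exact p = 0.0472) and -4.87 without peaks that overlap IgG (exact p = 0.0451).

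The differences below changed sign. For the deep share against IgG, a score of at least 70 gave 1.17 in pool 2 and 3.93 in pool 3, where limits of 5 kb and 20 kb gave 1.44 and 1.28 and starts of coding genes only gave 0.0452. For the CA or TG repeat against IgG, pool 2 gave 1.16 with starts of coding genes only, 0.254 and 1.51 with repeats of at least 16 and 30 bp, 2.33 in the central 300 bp and 1.67 without peaks of repeated words. Pool 3 gave -0.889 and -23.75 at scores of at least 70 and 100, -0.228 and -1.95 at 5 kb and 20 kb, -2.71 with repeats of at least 30 bp and -2.89 without peaks of repeated words. Against the other peaks, pool 1 gave -10 at a score of at least 100 and -1.46 at 20 kb.

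For the upper part of the scores, a score of at least 70 gave -2.94 in pool 1 and -5.71 in pool 3, and one of at least 100 gave -14.1 in pool 2 and -4.89 in pool 3. The limit of 20 kb gave -1.42 in pool 2 and -0.462 in pool 3, where 5 kb gave -2.61 and leaving out peaks that overlap IgG gave -0.292. For overlap with another pool, pool 1 gave -2.33 at a score of at least 70 and -0.299 without pool 2, and pool 3 gave -0.375 when 50% of both peaks had to overlap and -0.562 without pool 2. Leaving out pools gave -0.299 to 2.45 in pool 1 and -0.562 to 1.31 in pool 3. For overlap with IgG, pool 3 gave -1.15 and -0.725 at scores of at least 70 and 100, -0.322 and -0.965 at 5 kb and 20 kb, and -0.147 with starts of coding genes only. The cause of these changes was not tested. Without peaks of repeated words, and without the 2 genes that span many others, were settings chosen after seeing the data.

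No paired analysis was possible because the libraries of a pool were merged into 1 list and the lists carry no replicate numbers. Depth limits all lists to an unknown degree.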
